A study of Mus musculus with 64 samples.

Results

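The comparison set cultured mouse CD4 T cells that had lost Rc3h1, Rc3h2 and Zc3h12a (TKO) against control cells (WT), both left without restimulation (0 h). It comprised 8 libraries, 4 of each genotype, of 64 in the series, and the libraries were taken by their labelled genotype and time alone. TKO cells came from C57BL/6J mice that were Rc3h1/2 fl/fl, Zc3h12a fl/fl and carried Cd4-Cre-ERt2. Cells lacking both Roquin genes (DKO: Rc3h1/2 fl/fl with Cd4-Cre-ERt2) and cells lacking Regnase-1 (KO: Zc3h12a fl/fl with Cd4-Cre-ERt2) were also sequenced at 0 h, with 4 libraries each. WT cells carried Cd4-Cre-ERt2 alone, so the controls had the recombinase too. In this transgene Cre recombinase is fused to a tamoxifen-responsive receptor domain and made in cells that use Cd4. The cells of every genotype were isolated from spleen, treated with 4-OH-tamoxifen in culture, activated through CD3 and CD28 under Th1 conditions for 40 h and kept for 2 days in medium with IL-2. They were therefore T cells that had been activated and then rested, not naive cells. No label states that each library was a separate animal, or whether animals were shared between times. The p-values therefore describe how far libraries spread within their groups, which may be technical in part. For limma this spread was estimated over all 64 libraries.

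The Roquin proteins, products of Rc3h1 and Rc3h2, bind short stem-loops in the 3′ untranslated regions of mRNAs and recruit the deadenylation machinery. Regnase-1, encoded by Zc3h12a, is an endoribonuclease that cuts stem-loops of similar shape. In T cells these proteins are known to hold down mRNAs of costimulatory receptors, cytokines and transcription factors, and mice that lack them develop autoimmunity.

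The sequence element best known for Roquin is the constitutive decay element, a stem with a loop of 3 bases. It was searched in the annotated 3′ untranslated regions as TTCNNNGAA on the transcribed strand, with the middle limited to pyrimidine, purine, pyrimidine and at least 3 further base pairs closing the stem (G-U pairs allowed). The sites of genes described below are shown here with the core of 9 bases in capitals, written as DNA in the sense of the mRNA, on GRCm38 with transcripts of GENCODE vM21.
Pdzk1ip1: ttatTTCTGTGAAataa
Ctla4: tattTTCCATGAAaatg
Nfkbiz: ttgtTTCTATGAAacaa
Nfkbid: tgatTTCTGTGAAatcg
Rc3h1: taacTTCTGTGAAgttg
Rc3h2: taacTTCTGTGAAgttg
Tnf: tgttTTCTGTGAAaacg
The sites lie at chr4:115093827-115093843 (plus strand) for Pdzk1ip1, chr1:60915764-60915780 (plus) for Ctla4, chr16:55812613-55812629 (minus) for Nfkbiz, chr7:30428401-30428417 (plus) for Nfkbid, chr1:160971659-160971675 (plus) for Rc3h1, chr2:37373808-37373824 (minus) for Rc3h2 and chr17:35199584-35199600 (minus) for Tnf. The Rc3h1 and Rc3h2 sites are the same over all 17 bases printed. Nfkbid and Rc3h1 each hold another site of this form that is not printed, at chr7:30428430-30428444 (plus) and chr1:160968038-160968054 (plus). An element of this form was found in 99 of 13579 tested genes with an annotated 3′ untranslated region (0.729%). It was found in 34 of 2886 genes higher in TKO cells (1.18%), 16 of 2456 genes lower in TKO cells (0.651%) and 49 of 8237 genes that did not pass the test (0.595%). The median length of the region was 1329 bases in the higher genes, 1290 in the lower genes and 1101 in the rest. These are matches of letters and not tested binding sites.

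The 3 targeted genes were examined first. Levels are given in CPM, reads per 1000000 reads assigned to genes. Rc3h1 (chr1:160906418-160974978) had 84.6, 77.1, 74.3 and 61.1 CPM in TKO libraries, against 87.9, 81.1, 86.9 and 106 CPM in WT libraries. Rc3h2 (chr2:37370069-37422903) had 122, 108, 98.4 and 86.5 CPM in TKO libraries, against 74.8, 78.3, 66.4 and 90.3 CPM in WT libraries. Zc3h12a (chr4:125118423-125127840) had 22.9, 13.4, 20.1 and 11.9 CPM in TKO libraries, against 14.3, 12.5, 9.96 and 10.9 CPM in WT libraries. For each gene the TKO and WT values overlapped by at least 1 library, and the exact 2-sided permutation tests gave p = 0.0571 for Rc3h1, 0.0571 for Rc3h2 and 0.143 for Zc3h12a (70 arrangements of 4 against 4, smallest possible p 0.0286; Benjamini-Hochberg adjusted p = 0.0857, 0.0857 and 0.143). In limma's fit over all genes, Rc3h1 changed by -0.17 ± 0.10 on the log2 scale and did not pass (adjusted p = 0.19). With median-of-ratios, upper-quartile or total-reads scaling, and with the olfactory receptor term described below, limma called Rc3h1 lower in TKO cells. Rc3h2 was higher in TKO cells by 0.53 ± 0.12 (limma, adjusted p = 0.00035). Zc3h12a was higher by 0.59 ± 0.19 (adjusted p = 0.011), and this call was lost when TKO library 1 was left out. It was also lost by limma when only the groups compared were fitted (adjusted p = 0.068). Against DKO cells, in which Zc3h12a was not targeted, TKO minus DKO was -1.19 ± 0.19 (limma, adjusted p = 1.6e-05). TKO minus KO was 0.26 ± 0.19 and did not pass (adjusted p = 0.34). A gene total includes exons outside the floxed part, and with the floxed exons not given in the sources used here these totals check the labelled deletions only in part.

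Transcript levels below are normalized counts, meaning reads scaled to a common library depth by trimmed-mean factors (TMM). Changes are TKO minus WT on the scale of log2(normalized count + 1), ± SE, with 4 libraries per group. The test was limma's, with Benjamini-Hochberg adjustment across the 16140 genes tested, and called means an adjusted p below 0.05. At 0 h, 6045 genes (37.5%) were called, 3114 higher in TKO cells (19.3%) and 2931 lower (18.2%). Among genes with a mean of at least 5 CPM in a group, 155 rose and 159 fell at least 4-fold, and 25 rose and 0 fell at least 16-fold. The split into higher and lower calls depended on the scaling. Of the calls, 51.51% were higher with TMM factors, 58.88% with the authors' deposited scaling, 42.14% with median-of-ratios factors, 37.2% with total reads and 35.56% with the upper quartile, and 1963 genes were higher and 2708 lower under all 5 scalings. The authors' deposited table called 2699 of the tested genes in this comparison, and 2663 of those calls (98.7%) had the same direction here.

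**Figure D1:**
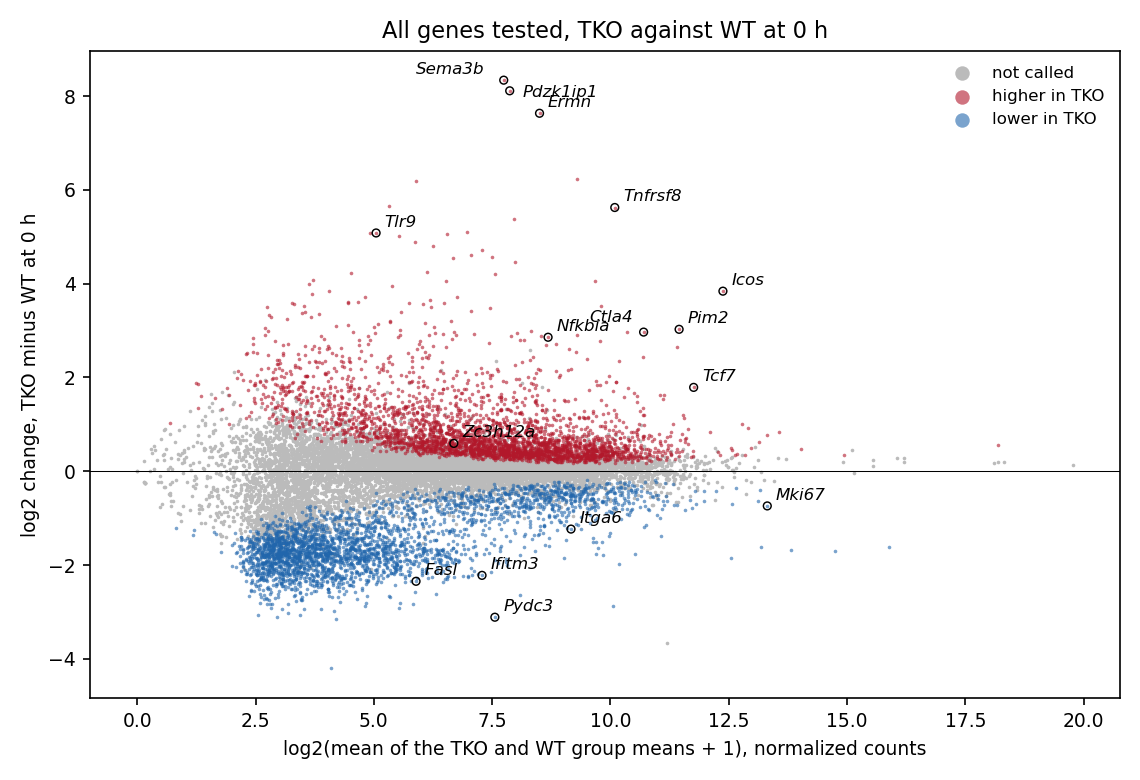
Log2 change of each of the 16140 genes tested (TKO minus WT at 0 h, y axis) against its level (log2 of the mean of the TKO and WT group means + 1, in normalized counts, x axis). Red points are genes called higher in TKO cells, blue points genes called lower and grey points genes not called. The largest changes are rises (Sema3b, Pdzk1ip1 and Ermn, above 7), and a dense group of falls lies at low levels.

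Libraries held 6029477 to 8411872 reads in the TKO group and 6224400 to 7532417 in the WT group. In a principal component analysis of the 16 libraries at 0 h, WT library 3 lay at -20.47 on component 1 (41.69% of the variance), whereas the other WT libraries lay between 47.56 and 80.24. TKO library 4 lay at -36.25 on component 2 (18.65%), whereas the other TKO libraries lay between 19.13 and 47.85. Without these 2 libraries 6037 genes were called, 3210 higher and 2827 lower in TKO cells. The libraries of each genotype were of mixed Xist and Y-linked pattern: Xist exceeded the sum of 4 Y-linked genes in 1 of 4 TKO, 2 of 4 DKO, 1 of 4 KO and 2 of 4 WT libraries. Each library was clearly of 1 pattern, so each genotype came from more than 1 animal. The numbers were the same at 1, 2 and 4 h of restimulation, so animals may recur between times. The fit treated all 64 libraries as independent, and with only the groups compared 3717 genes were called.

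Markers of T cells overlapped between the groups. The 12 genes of that list summed to 2146 to 2303 CPM in TKO libraries and 2177 to 2421 CPM in WT libraries. Cd4, the coreceptor by which the cells were isolated, changed by 0.32 ± 0.15 (limma, adjusted p = 0.094), and Cd3e, a chain of the T cell receptor complex, by -0.13 ± 0.09 (adjusted p = 0.27). The B cell markers summed to 398.2 to 540.3 CPM in TKO libraries and 144.2 to 235.7 CPM in WT libraries, and 5 of the 9 tested were called higher. Most of that sum was Ighm, the heavy chain of IgM, with 3343, 2662, 3556 and 3931 normalized counts in TKO libraries, against 849, 885, 1791 and 1024 in WT libraries. The B cell markers Cd79a and Ms4a1 were near 0: Cd79a averaged 2.82 normalized counts in TKO and 1.76 in WT cells, and Ms4a1 averaged 0.455 in TKO and 1.42 in WT cells. Myeloid markers summed to 65.4 to 73.3 CPM in TKO libraries and 42.2 to 52.7 CPM in WT libraries, led by the protease gene Ctss. In such bulk samples, fewer cells of a type and less RNA per cell cannot be told apart.

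The largest rises were of genes close to undetected in WT cells. Over all genes tested, 13.7% had every TKO library above every WT library and 9.72% had every TKO library below. Sema3b, which encodes a secreted semaphorin (chr9:107597674-107609229), had 504, 494, 436 and 272 normalized counts in TKO libraries, against 0, 0, 0 and 1.71 in WT libraries. Pdzk1ip1, a small membrane protein that binds PDZ proteins and the gene among the 15 leading rises that holds the decay element (chr4:115088708-115093899), had 502, 310, 543 and 506 in TKO libraries, against 1.00, 0.983, 0 and 0.854 in WT libraries. Ermn, a cytoskeletal protein known from oligodendrocytes (chr2:58045113-58052864), had 584, 945, 820 and 530 in TKO libraries, against 1.00, 2.95, 1.25 and 7.69 in WT libraries. All 4 TKO libraries exceeded all 4 WT libraries for each of these genes, by at least 272 against 1.71 counts for Sema3b. Groups without overlap were a condition for being named among the leading rises, so this is not a separate result. The log2 changes were 8.34 ± 0.64 for Sema3b (limma, adjusted p = 4.6e-15), 8.11 ± 0.39 for Pdzk1ip1 (adjusted p = 2.9e-22) and 7.63 ± 0.59 for Ermn (adjusted p = 5e-15). From the reads themselves, the TKO to WT ratio of CPM was 785 for Sema3b (95% exact binomial interval 217 to 6486, from 2 reads in the WT libraries) and 577 for Pdzk1ip1 (197 to 2800, from 3 WT reads), intervals that cover counting error only.

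Several leading rises were of receptors. Tnfrsf8, the TNF receptor family member CD30 (chr4:145267137-145315164), had 2454, 2996, 2621 and 505 normalized counts in TKO libraries, against 28.1, 30.5, 31.3 and 54.7 in WT libraries. It rose by 5.62 ± 0.73 (limma, adjusted p = 4.8e-08), and by 6.23 without TKO library 4, the lowest of the 4. Kit, the receptor for stem cell factor, had 550, 777, 425 and 190 in TKO libraries, against 7.02, 10.8, 16.3 and 5.98 in WT libraries, a rise of 5.39 ± 0.41 (adjusted p = 3.3e-15). Il9r, the receptor for IL-9, had 68.7, 56.2, 55.9 and 171 in TKO libraries, against 1.00, 1.97, 0 and 5.13 in WT libraries (5.01 ± 0.52, adjusted p = 4.8e-11). Tlr9, an endosomal sensor of unmethylated DNA that B cells also use, had 59.2, 80.7, 61.6 and 51.1 in TKO libraries, against 1.00, 0, 1.25 and 1.71 in WT libraries (5.08 ± 0.38, adjusted p = 4.6e-16). No TKO library of these receptors overlapped the WT range, which was a condition for being named among the leading rises.

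The other leading rises were of genes with varied roles. Il24, a cytokine of the IL-10 family, rose by 5.05 ± 0.53 and the Wnt ligand Wnt10b by 5.08 ± 0.56. Dlk1, a membrane protein with EGF-like repeats, had 143, 95.3, 38.5 and 31.6 normalized counts in TKO libraries, against 0, 0, 0 and 1.71 in WT libraries (5.66 ± 0.67). Cebpd, a C/EBP transcription factor, rose by 6.19 ± 0.59, but it overlaps Spidr on the other strand, which had 873% as many reads, and reads of the 2 genes could not be assigned by strand here. Zbtb32, a zinc finger repressor, had 411, 495, 447 and 37.0 in TKO libraries, against 9.03, 6.88, 7.52 and 15.4 in WT libraries. It rose by 4.57 ± 0.51, and by 5.46 without TKO library 4. Bmf, a BH3-only protein that promotes apoptosis, had 264, 298, 303 and 335 in TKO libraries, against 5.02, 8.84, 17.5 and 14.5 in WT libraries (4.72 ± 0.44, limma, adjusted p = 2e-12). Fam43a and Zcchc18 completed the 15, with rises of 4.79 ± 0.33 and 4.60 ± 0.32; Zcchc18 overlaps Slc25a53 on the other strand (77.7% as many reads).

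**Figure D2:**
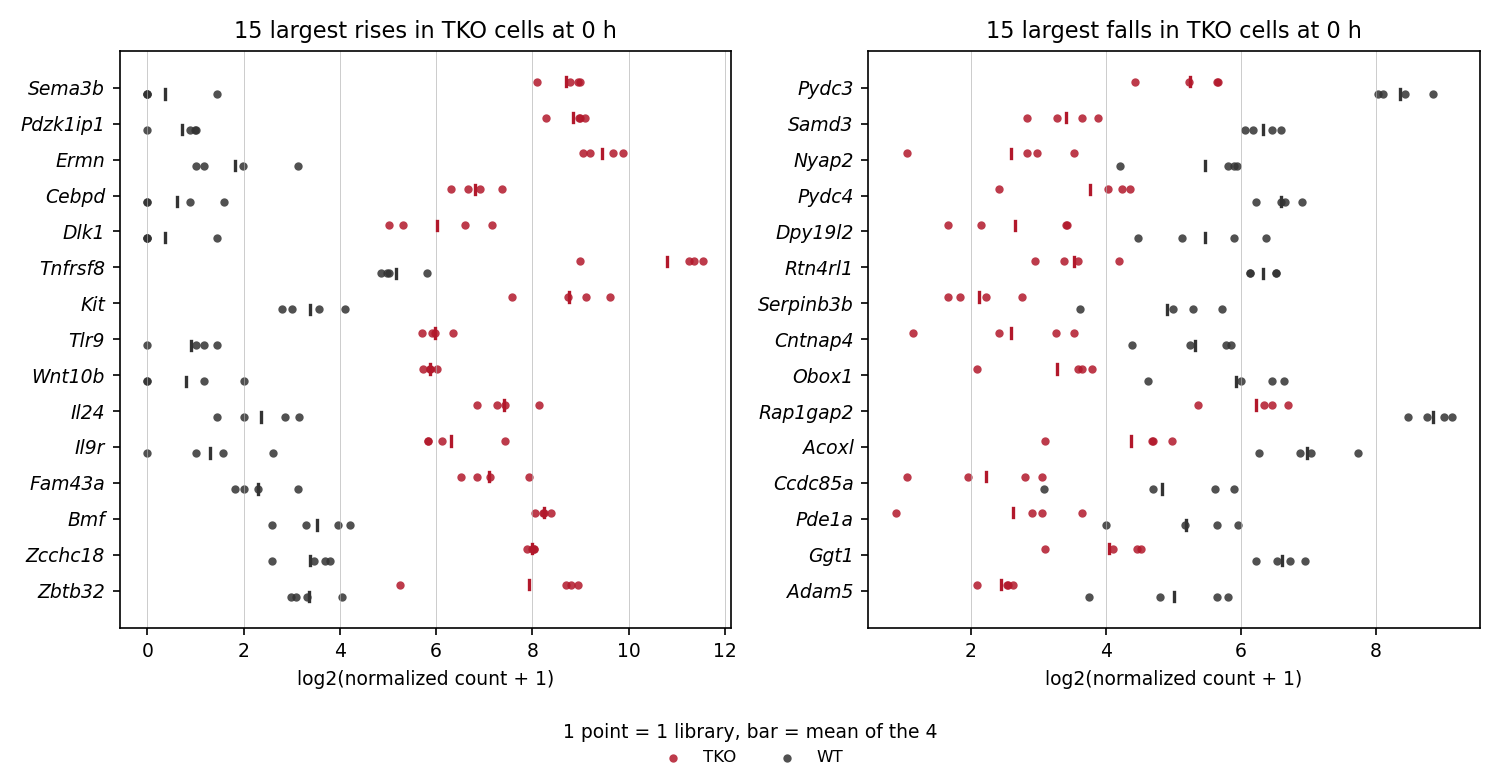
Log2(normalized count + 1) in each library (x axis) for the 15 largest rises (left) and the 15 largest falls (right) among called genes of at least 5 CPM whose groups do not overlap. Red points are TKO libraries, drawn above the grey WT libraries of the same gene, and short bars are group means. Sema3b, Pdzk1ip1 and Dlk1 have WT libraries at 0, and 1 TKO library (library 4) lies below the others for Tnfrsf8 and Zbtb32.

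Of the mRNAs described as Roquin or Regnase-1 targets, 15 of the 29 tested were higher in TKO cells and 1 was lower, with a median change of 1.17 beside 0.07 over all genes tested. This list was drawn up from studies of these proteins and with earlier results of these data known, so its direction is not independent evidence. For this and all later lists of TKO against WT cells, the shares to compare are 19.3% higher and 18.2% lower over all genes tested. Icos, the inducible costimulator (chr1:60977927-61000320), had 10646, 12167, 10321 and 6590 normalized counts in TKO libraries, against 619, 611, 519 and 1060 in WT libraries. That is a mean of 9931 ± 2368 in TKO and 702 ± 243 in WT cells (SD), 14.1-fold, and the lowest TKO library was above the highest WT library (limma, 3.84 ± 0.40, adjusted p = 1e-10). Tnfrsf4, the costimulatory receptor OX40, had 1975, 3037, 2300 and 607 in TKO libraries, against 290, 352, 238 and 497 in WT libraries (2.36 ± 0.30, adjusted p = 1.8e-08). Nfkbiz, a nuclear IkB protein that carries the element shown above, had 1887, 1887, 1692 and 1510 in TKO libraries, against 367, 308, 604 and 667 in WT libraries (1.91 ± 0.21, adjusted p = 3.6e-10). Rel, the NF-kB subunit c-Rel, had 566, 523, 451 and 469 in TKO libraries, against 138, 155, 310 and 190 in WT libraries (1.40 ± 0.17). Tnf, which carries the element in its best studied form, had 284, 438, 299 and 285 in TKO libraries, against 293, 364, 414 and 289 in WT libraries, a change of -0.07 ± 0.34 (limma, adjusted p = 0.9). The TKO and WT values of Tnf overlapped throughout.

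Costimulatory receptors were among the lists with the largest share of rises, with 10 of 14 higher, 1 lower and a median change of 1.01. Beside Icos and Tnfrsf4, Tnfrsf25 (death receptor 3) rose by 1.83 ± 0.20 and was above the WT range in all 4 TKO libraries. Cd28, the constitutive costimulator, changed by 0.73 ± 0.32 and did not pass (limma, adjusted p = 0.066). Of 13 ligands of the TNF superfamily, 8 were higher and 1 was lower, with a median of 1.41. Tnfsf14, the ligand LIGHT, had 127, 144, 97.3 and 110 normalized counts in TKO libraries, against 9.03, 8.84, 7.52 and 11.1 in WT libraries (3.57 ± 0.26, adjusted p = 5.4e-16). Cd40lg, the ligand by which T cells help B cells, had 1190, 1576, 1119 and 992 in TKO libraries, against 180, 162, 266 and 354 in WT libraries (2.39 ± 0.26). The member that fell was Fasl, the ligand that kills Fas-bearing cells, with 10.3, 33.0, 20.2 and 15.2 in TKO libraries, against 82.3, 97.3, 122 and 87.1 in WT libraries (-2.35 ± 0.38, limma, adjusted p = 2.9e-06). Tnfsf9 rose by 2.42 ± 0.34 but overlaps Gm11110 on the other strand, which had 370% as many reads.

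The list of inhibitory receptors went both ways, with 5 of 12 higher, 2 lower and a median of 0.59. It also holds surface molecules that are not themselves inhibitory receptors, such as Cd200 and Entpd1. Ctla4, which removes the ligands of CD28 (chr1:60887000-60915832), had 2608, 4106, 2364 and 2604 normalized counts in TKO libraries, against 226, 246, 440 and 713 in WT libraries (2.97 ± 0.42, limma, adjusted p = 2.7e-07). Cd200 rose by 1.62 ± 0.31. Lair1, a collagen receptor, had 38.6, 57.4, 55.9 and 39.2 in TKO libraries, against 140, 133, 246 and 132 in WT libraries (-1.72 ± 0.23). Entpd1, the ectonucleotidase CD39, had 122, 165, 141 and 72.9 in TKO libraries, against 266, 301, 312 and 391 in WT libraries (-1.38 ± 0.23, limma, adjusted p = 4e-06). Neither group of libraries overlapped the other for Ctla4, Lair1 or Entpd1.

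In the NF-kB pathway, 11 of 24 members were higher and 4 lower, with a median of 0.33. The smallest adjusted p was that of an inhibitor of the pathway. Nfkbia, the inhibitor IkB-alpha (chr12:55489410-55492647), had 721, 724, 694 and 738 normalized counts in TKO libraries, against 73.2, 100, 132 and 96.5 in WT libraries (2.86 ± 0.15, limma, adjusted p = 7.9e-22). Its 4 TKO values lay between 694 and 738. Tnip1, a partner of the deubiquitinase A20, rose by 1.27 ± 0.14. Nfkbid, the nuclear IkB protein IkBNS named after its values were seen, had 489, 302, 633 and 519 in TKO libraries, against 153, 141, 127 and 66.6 in WT libraries (2.00 ± 0.28, adjusted p = 1.6e-07). Rela, the subunit p65, changed by 0.07 and Tnfaip3, encoding A20, by 0.31, and neither passed.

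Cytokines were called in fewer cases, 8 of 25 higher and 2 lower with a median of 0.48. Il10 had 96.2, 117, 70.3 and 25.0 normalized counts in TKO libraries, against 5.02, 0.983, 5.01 and 4.27 in WT libraries (3.95 ± 0.59, limma, adjusted p = 7.3e-07). Ebi3, a subunit shared by IL-27 and IL-35, had 178, 287, 216 and 102 in TKO libraries, against 6.02, 3.93, 6.27 and 14.5 in WT libraries (4.54 ± 0.39). Il13 stayed at low levels, with 12.9, 17.1, 17.3 and 30.5 in TKO libraries, against 0, 1.97, 1.25 and 0.854 in WT libraries (3.38 ± 0.38). Ifng, the cytokine that defines Th1 cells, changed by 1.36 ± 0.57 (limma, adjusted p = 0.054) and Il21, a cytokine of follicular helper cells that overlaps Gm12534 on the other strand (65.8% as many reads), by 1.16 ± 0.60 (adjusted p = 0.13). Neither passed the threshold.

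Genes of follicular helper T cells (Tfh) had the largest share of rises of the lists, with 11 of 13 higher, 0 lower and a median of 1.75. The counts were 11 higher without WT library 3 and TKO library 4, and 10 higher under all 5 scalings. Slamf6, a receptor that binds its own kind on B cells, had 1841, 1798, 1587 and 897 normalized counts in TKO libraries, against 210, 209, 145 and 325 in WT libraries (2.78 ± 0.25, limma, adjusted p = 1.5e-12). Tox2, a high-mobility-group transcription factor, had 719, 375, 455 and 378 in TKO libraries, against 18.1, 26.5, 10.03 and 34.2 in WT libraries (4.45 ± 0.51). The transcription factors Bcl6 (1.75 ± 0.41) and Maf (2.44 ± 0.65), named after their values were seen, also rose, but TKO library 4 lay within the WT range for both, with 66.4 counts of Bcl6 and 92.5 of Maf. Cxcr5, the receptor that draws cells into follicles, was called at 1.57 ± 0.51 (limma, adjusted p = 0.012), but its groups overlapped, Bcl9l on the other strand had 1285% as many reads, and the call was lost without WT library 1 and without WT library 3.

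The other helper lists moved less. Of 14 Th1 genes, 1 was higher and 3 were lower, and the median change of 0.09 turned to -0.04 with the upper quartile and -0.02 with total reads. The counts leaned the other way without TKO library 4 (5 higher, 2 lower, median 0.23) and with the deposited scaling (4 higher, 3 lower, median 0.16). Eomes, a T-box factor of cytotoxic and memory cells, had 42.9, 29.3, 35.6 and 69.6 normalized counts in TKO libraries, against 237, 318, 262 and 78.6 in WT libraries (-2.21 ± 0.46, limma, adjusted p = 0.0002). Tbx21, the Th1 factor T-bet, changed by 0.65 ± 0.29 (adjusted p = 0.075). Of 11 Th2 genes, 3 were higher and 1 was lower, and the fall was of Gata3, the Th2 master factor, with 254, 398, 245 and 235 in TKO libraries, against 435, 444, 590 and 716 in WT libraries (-0.95 ± 0.23, adjusted p = 0.0011). Of 11 Th17 genes, 3 were higher, among them the kinase-activated factor Stat3 (1.06 ± 0.12) and the aryl hydrocarbon receptor Ahr (1.51 ± 0.30). Of 10 regulatory T cell genes, 5 were higher and 2 lower. The rises included Ikzf2 (Helios), with 2558, 2110, 1751 and 2747 in TKO libraries, against 178, 208, 559 and 337 in WT libraries (2.96 ± 0.33, adjusted p = 9.1e-10), and Ikzf4 (1.97 ± 0.27). Foxp3, the factor that defines regulatory T cells, changed by -1.12 ± 0.49 and did not pass (limma, adjusted p = 0.063), and Ppp1r3f on the other strand had 198% as many reads.

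Transcription factors of T cell activation rose in 10 of 20 cases, with 0 lower and a median of 1.20. Batf, an AP-1 family factor, had 921, 776, 824 and 1292 normalized counts in TKO libraries, against 155, 130, 177 and 153 in WT libraries (2.60 ± 0.16, limma, adjusted p = 1.2e-19). Immediate early genes were higher in 8 of 23 cases and lower in 1. Nr4a1, which reports signalling through the T cell receptor, had 164, 166, 88.6 and 119 in TKO libraries, against 25.1, 47.2, 33.8 and 52.1 in WT libraries (1.75 ± 0.28), and Atf3 rose by 2.63 ± 0.49 (1.98 without WT library 3, and not called by limma voom at an adjusted p of 0.142). The signalling proteins of the T cell receptor themselves were called in 4 of 23 cases, all higher, with a median of 0.03 that was below 0 under 3 of the 5 scalings. Genes of naive and recirculating cells were split, with 6 of 15 higher and 3 lower and a median of 0.04 that was below 0 under 3 of the 5 scalings. Tcf7, the factor TCF-1 (chr11:52252371-52283014), had 5244, 5003, 5285 and 5793 in TKO libraries, against 1206, 1244, 2286 and 1640 in WT libraries (1.79 ± 0.22, limma, adjusted p = 8.5e-09). The homing receptor Ccr7 had 1418, 1320, 1225 and 1606 in TKO libraries, against 609, 563, 1003 and 548 in WT libraries (1.07 ± 0.25). Klf2, a quiescence factor, had 77.3, 34.2, 80.9 and 59.9 in TKO libraries, against 147, 127, 261 and 132 in WT libraries (-1.40 ± 0.36, adjusted p = 0.0019).

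In the list of IL-2 receptor signalling, 9 of 20 members were higher and 1 was lower. Pim2, a kinase induced by cytokines that share the common gamma chain (chrX:7878262-7883432), had 4813, 5260, 5059 and 4761 normalized counts in TKO libraries, against 527, 535, 876 and 555 in WT libraries. The mean was 4973 ± 231 in TKO and 623 ± 169 in WT cells (SD), 7.98-fold (limma, 3.03 ± 0.21, adjusted p = 2.3e-17). Il2ra, the alpha chain of the IL-2 receptor, had 12956, 15247, 12630 and 10253 in TKO libraries, against 7497, 8351, 5734 and 8146 in WT libraries (0.78 ± 0.16, adjusted p = 0.00015). Among genes of cell death and survival, 8 of 21 were higher and 2 lower (5 higher under all 5 scalings), led by Bcl2l1, which encodes the survival protein Bcl-xL, with 2466, 2772, 1934 and 1983 in TKO libraries, against 718, 693, 831 and 724 in WT libraries (1.61 ± 0.16, adjusted p = 4.5e-12). GIMAP GTPases, a gene cluster of lymphocyte survival, were higher in 6 of 8 cases and lower in 0, with a median of 0.86. Gimap3 had 651, 664, 667 and 510 in TKO libraries, against 268, 257, 317 and 322 in WT libraries (1.09 ± 0.14, limma, adjusted p = 6.6e-09), and Gimap8 rose by 0.75 ± 0.14.

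Counts of mRNA decay factors depended on the scaling, with 9 of 31 higher and 2 lower. With the deposited scaling 16 were higher, without WT library 3 and TKO library 4 14 were higher, and 3 were higher under all 5 scalings. The relatives of Regnase-1 stood out by size. Zc3h12c, encoding Regnase-3, had 156, 220, 119 and 44.6 normalized counts in TKO libraries, against 10.03, 7.86, 6.27 and 15.4 in WT libraries (3.5 ± 0.46, limma, adjusted p = 4.2e-08). Zc3h12d, encoding Regnase-4, had 1030, 1236, 790 and 695 in TKO libraries, against 177, 168, 268 and 202 in WT libraries (2.18 ± 0.28, adjusted p = 1.8e-08). The lowest TKO library of each gene was above the highest WT library. Cnot3, a subunit of the CCR4-NOT deadenylase, rose by 0.52 ± 0.11.

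Metabolic lists depended on the libraries and terms used. Glycolysis and the hypoxia response had 4 of 24 members higher and 0 lower with a median of 0.23, and 9 higher with a median of 0.57 without TKO library 4. The smallest adjusted p was that of the hexokinase gene Hk2, with 1878, 1968, 1561 and 915 normalized counts in TKO libraries, against 372, 296, 229 and 750 in WT libraries (2.03 ± 0.27, limma, adjusted p = 7.8e-08). Of 22 cholesterol synthesis genes, 0 were called in either direction by limma, with a median of -0.03 that changed sign with the scaling. With the olfactory receptor term described below, 6 of the 22 were lower and the median was -0.53. The adenosine receptor gene Adora2b had 74.7, 58.7, 43.3 and 26.1 in TKO libraries, against 3.01, 4.91, 0 and 6.84 in WT libraries (3.71 ± 0.44, and 3.08 without WT library 3).

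**Figure D3:**
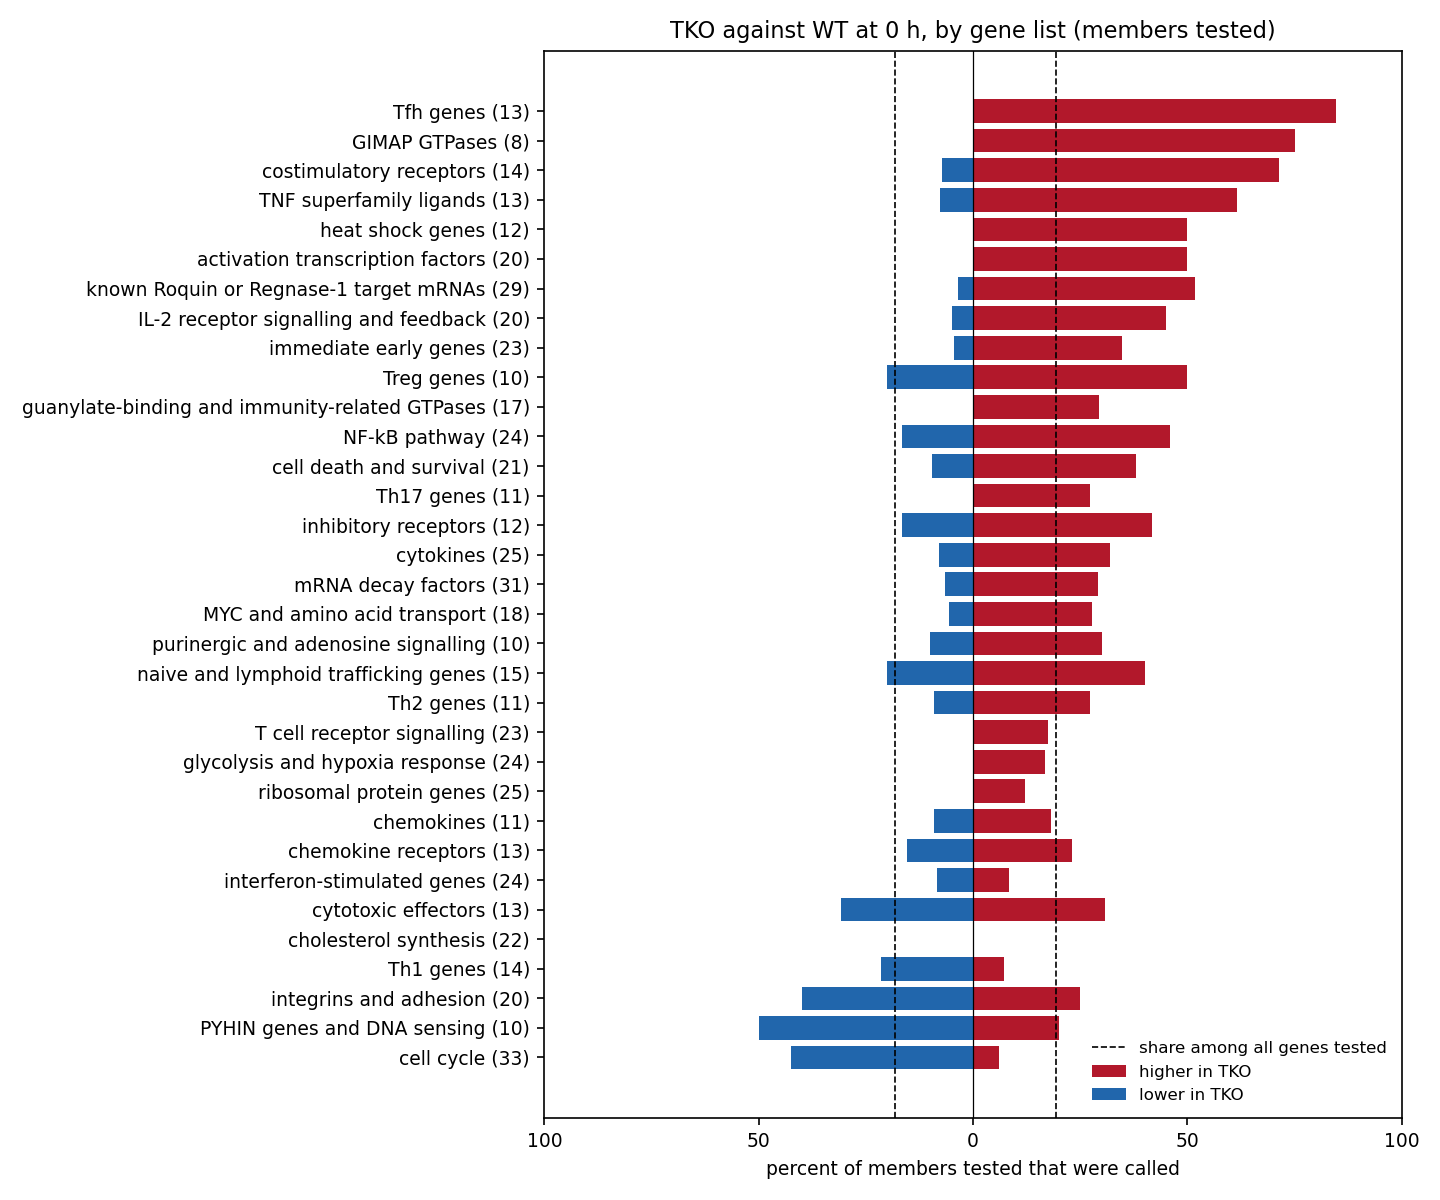
Percent of the tested members of each gene list that were called in TKO against WT at 0 h (x axis; to the right of 0 higher in TKO cells, to the left lower), with the number of members tested beside each name and lists of at least 8 tested members ordered by the excess of higher over lower. Dashed lines are the shares over all genes tested (19.3% higher and 18.2% lower). Tfh genes are furthest to the right with 11 of 13 higher, and cell cycle genes have 14 of 33 lower.

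The lower genes included the cell cycle list, with 14 of 33 lower, 2 higher and a median of -0.45. Without WT library 3 and TKO library 4 the counts were 10 lower and 1 higher. Mki67, the proliferation marker Ki-67, had 6933, 7395, 8491 and 7754 normalized counts in TKO libraries, against 12472, 12873, 12447 and 13098 in WT libraries (-0.74 ± 0.11, limma, adjusted p = 6.4e-07). Top2a, a topoisomerase of dividing cells, had 4273, 4296, 4601 and 5132 in TKO libraries, against 7750, 6865, 8854 and 6469 in WT libraries (-0.70 ± 0.14), and E2f2, a factor of the G1 to S transition, had 327, 310, 308 and 313 in TKO libraries, against 686, 650, 1163 and 550 in WT libraries (-1.21 ± 0.22). The groups did not overlap for any of these genes. The median changes of the list stayed below 0 under all 5 scalings.

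Innate immunity families differed from each other. Of 10 tested genes of the PYHIN family and of cytosolic DNA sensing, 5 were lower and 2 higher, with a median of -0.84. Pydc3 (chr1:173673675-173698395), a pyrin-domain member of the family and the largest named fall, had 49.8, 36.7, 49.1 and 20.7 normalized counts in TKO libraries, against 344, 461, 262 and 276 in WT libraries (-3.11 ± 0.44, limma, adjusted p = 1.6e-07). Its neighbour Pydc4 had 18.03, 19.6, 15.4 and 4.35 in TKO libraries, against 96.3, 119, 100 and 74.3 in WT libraries (-2.83 ± 0.38). These genes have close relatives in the same cluster, and how reads shared between copies were counted is not given in the sources used here. Mb21d1, the DNA sensor cGAS, fell by 1.54 on the log2 scale, whereas the inflammasome sensor Aim2 had 643, 494, 602 and 305 in TKO libraries, against 227, 159, 188 and 126 in WT libraries (1.52 ± 0.20, limma, adjusted p = 2.3e-08). Of 4 interferon-induced transmembrane (IFITM) genes, 2 were lower (1 without WT library 3 and TKO library 4). Ifitm3, which blocks viral entry, had 33.5, 41.6, 63.6 and 71.8 in TKO libraries, against 203, 255, 429 and 144 in WT libraries (-2.22 ± 0.30). Other interferon-stimulated genes were called in 4 of 24 cases, 2 in each direction, and 5 of 17 guanylate-binding and immunity-related GTPases were higher, such as Gbp5 (1.30 ± 0.21).

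Cytotoxic effectors went both ways, with 4 of 13 higher and 4 lower. Nkg7, a granule protein, had 23.2, 17.1, 17.3 and 35.9 normalized counts in TKO libraries, against 109, 80.6, 211 and 47.8 in WT libraries (-2.07 ± 0.32, limma, adjusted p = 1.2e-06). NK cell markers summed to 8.62 to 12.5 CPM in TKO libraries and 17.7 to 55.2 CPM in WT libraries. Eomes held most of that sum, and the NK receptor Ncr1 averaged 0.241 normalized counts in TKO and 1.1 in WT cells. Integrins and adhesion molecules were lower in 8 of 20 cases and higher in 5. Itga6, the integrin alpha-6 chain, had 367, 332, 347 and 316 in TKO libraries, against 738, 709, 980 and 799 in WT libraries (-1.23 ± 0.16, limma, adjusted p = 1.1e-08), whereas Itgal, the alpha chain of LFA-1, had 2735, 3037, 2606 and 2678 in TKO libraries, against 1779, 1579, 2388 and 1462 in WT libraries (0.64 ± 0.11). Among chemokine receptors 3 of 13 were higher and 2 lower, near the shares over all genes tested (19.3% higher and 18.2% lower). The called members included Ccr4 (1.5 ± 0.22) and Ccr2 (-1.92 ± 0.36).

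Most of the leading falls were of genes at low levels. Of the 15, 12 averaged under 100 normalized counts in WT cells. The other 3 were Pydc3, Acoxl and Rap1gap2. Rap1gap2, which switches off the GTPase Rap1, had 87.6, 80.7, 103 and 40.3 in TKO libraries, against 435, 355, 519 and 560 in WT libraries (-2.63 ± 0.27, limma, adjusted p = 2.6e-11). Ggt1, an enzyme of glutathione breakdown that averaged 98.8 in WT cells, had 16.3, 22.0, 21.2 and 7.62 in TKO libraries, against 123, 92.4, 105 and 74.3 in WT libraries (-2.56 ± 0.35). WT library 3 was the lowest WT library in 10 of the 15, and TKO library 4 the lowest TKO library in 11. Over all genes under 5 CPM in both groups, 1439 of 4986 were lower in TKO cells and 409 higher.

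A family with no known use in T cells moved with these falls. The 174 olfactory and vomeronasal receptor genes in the table summed to 75.0, 83.4, 79.2 and 60.1 CPM in TKO libraries, against 175, 221, 118 and 266 CPM in WT libraries. Of the 45 receptor genes tested, 33 were lower in TKO cells and 0 higher. When the log2 of that sum was added to the model as a term, an alternative chosen after seeing the data, 2555 genes were called, 1305 higher and 1250 lower. Of genes under 5 CPM, 152 were then lower and 247 higher, and of genes at 5 CPM or more, 1098 were lower and 1058 higher. All 15 leading rises stayed called with this term, whereas 9 of the 15 leading falls were lost. The 6 falls still called were Pydc3 (-2.49), Samd3 (-2.18), Pydc4 (-2.41), Rtn4rl1 (-2.37), Rap1gap2 (-2.15) and Ggt1 (-2.08). The term left 9 of 13 Tfh genes higher, 10 of 29 known targets higher, 6 of 14 costimulatory receptors higher, 5 of 8 GIMAP genes higher and 14 of 33 cell cycle genes lower, and it left 3 of 23 immediate early genes higher. It also left 5 of 20 genes of IL-2 receptor signalling, 3 of 21 of cell death and survival and 3 of 31 mRNA decay factors higher. Of other lists, 3 of 12 inhibitory receptors, 2 of 15 naive cell genes, 1 of 13 cytotoxic effectors and 0 of 20 integrins were higher with the term. Over all genes tested, 1305 of 16140 were higher and 1250 lower with the term, and mRNA decay factors and cytotoxic effectors were near that share of higher genes. The NF-kB list had 8 of 24 higher and 5 lower with the term, and a median of -0.07. Of the genes described above, Zc3h12a (adjusted p = 0.425), Ccr7 (0.14), Klf2 (0.061) and Itgal (0.214) were no longer called by limma with this term. Because the sum was lower in all TKO than in all WT libraries, the part of the genotype and the part of the receptor sum cannot be told apart by this comparison alone.

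To see what triple loss added, TKO cells were compared with DKO and with KO cells at 0 h. Against DKO cells 2389 genes were called (14.8%), 1409 higher (8.73%) and 980 lower (6.07%). Against KO cells 3285 were called (20.4%), 1846 higher (11.4%) and 1439 lower (8.92%). Higher genes made up 58.98% of the calls against DKO and 56.19% against KO cells, and with the deposited scaling 15.85% and 22.92%. With the receptor term the counts were 437 against DKO and 808 against KO cells. Of the Tfh genes 2 of 13 were higher in TKO than in DKO cells and 7 of 13 higher than in KO cells. Of the known targets 3 of 29 were higher than in DKO cells and 9 of 29 higher than in KO cells, and of the heat shock genes 9 of 12 were higher than in DKO cells. The comparisons with WT, DKO and KO cells share the TKO libraries. Nfkbia averaged 719 ± 18.5 normalized counts in TKO, 199 ± 66.4 in DKO, 183 ± 27.1 in KO and 100 ± 24.0 in WT cells (SD), and TKO exceeded DKO by 1.90 ± 0.15 (limma, adjusted p = 9.1e-14) and KO by 1.98 ± 0.15 (adjusted p = 1.8e-14). Pdzk1ip1 averaged 465 ± 105 in TKO, 39.6 ± 12.0 in DKO, 78.4 ± 34.7 in KO and 0.71 ± 0.478 in WT cells, and was 3.55 ± 0.39 above DKO (adjusted p = 4.2e-09). Batf averaged 953 ± 233 in TKO, 418 ± 52.8 in DKO, 375 ± 46.7 in KO and 154 ± 19.2 in WT cells. For these 3 genes each mean of a DKO or KO group lay between those of TKO and WT cells.

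Other genes were closer in level to DKO or to KO cells. Ctla4 averaged 2920 ± 798 normalized counts in TKO, 2922 ± 1582 in DKO, 977 ± 424 in KO and 406 ± 226 in WT cells (SD). TKO minus DKO was 0.13 ± 0.42 (limma, adjusted p = 0.88), which does not show that the levels were the same, and TKO minus KO was 1.65 (adjusted p = 0.0046). Il9r averaged 87.9 ± 55.6 in TKO, 61.4 ± 28.2 in DKO, 4.57 ± 2.05 in KO and 2.02 ± 2.22 in WT cells, and was 3.92 ± 0.52 higher in TKO than in KO cells (adjusted p = 1.9e-07). Its difference from DKO cells, 0.46 ± 0.52, did not pass (limma, adjusted p = 0.6). Tnfrsf8 averaged 2144 ± 1116 in TKO, 593 ± 365 in DKO, 68.2 ± 26.3 in KO and 36.1 ± 12.4 in WT cells, and was 4.74 ± 0.73 higher in TKO than in KO cells (adjusted p = 7.1e-06). Its difference from DKO cells, 1.85 ± 0.73, did not pass either (limma, adjusted p = 0.08). For Il9r and Tnfrsf8 the DKO and KO means also lay between those of TKO and WT cells. Entpd1 was closer to KO cells, with 125 ± 39.0 in TKO, 343 ± 30.2 in DKO, 173 ± 25.2 in KO and 317 ± 53.0 in WT cells. It was 1.51 ± 0.23 lower in TKO than in DKO cells on the log2 scale, coded as -1.51 (limma, adjusted p = 5.9e-06), and its difference from KO cells of -0.51 did not pass (adjusted p = 0.1). The mean of Icos was 9931 ± 2368 in TKO, 4671 ± 1138 in DKO, 3362 ± 667 in KO and 702 ± 243 in WT cells. TKO exceeded KO by 1.55 ± 0.40 (adjusted p = 0.0048), and the difference from DKO of 1.08 ± 0.40 did not pass (adjusted p = 0.056).

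**Figure D4:**
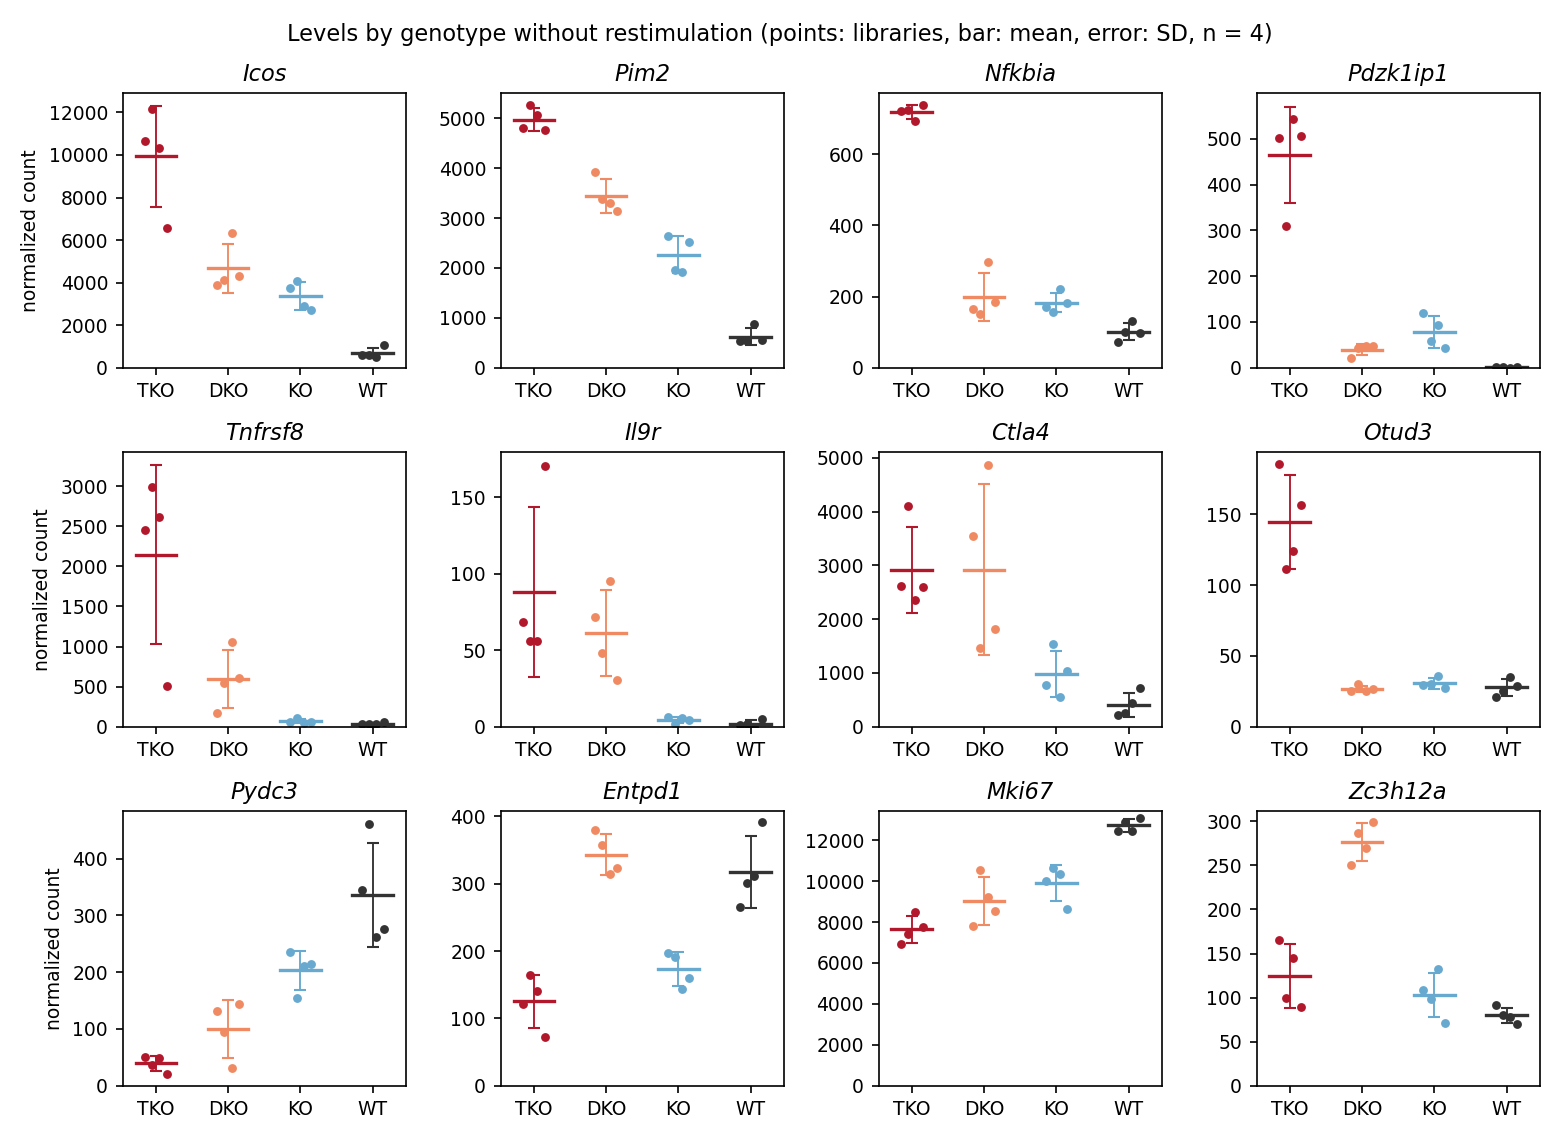
Normalized counts (y axis) of 12 genes in TKO, DKO, KO and WT cells at 0 h (x axis). Points are libraries, horizontal bars group means and error bars SD (n = 4). Nfkbia and Otud3 have all 4 TKO libraries above every library of the other genotypes, Ctla4 overlaps between TKO and DKO cells, and Entpd1 is high in DKO and WT cells.

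Non-additivity was tested as TKO minus DKO minus KO plus WT on the log2 scale, which is 0 where the effects of Roquin and Regnase-1 loss add up. It was called for 118 of 16140 genes (0.731%), 99 with a positive (0.613%) and 19 with a negative sign (0.118%). With the deposited scaling 1795 genes were called, 25 positive and 1770 negative. Positive calls outnumbered negative ones with median-of-ratios factors (161 and 23), total reads (36 and 20) and the upper quartile (43 and 36). The usual sign of the departure was thus reversed by the deposited scaling alone, and 17 positive and 15 negative calls were shared by all 5 scalings. Otud3, a deubiquitinase (chr4:138895379-138913945), had 185, 111, 124 and 157 normalized counts in TKO libraries, against 21.1, 25.5, 35.1 and 29.0 in WT libraries. It averaged 26.7 ± 2.20 in DKO and 30.6 ± 3.61 in KO cells, and departed from additivity by 2.21 ± 0.30 (limma, adjusted p = 1e-05). Prkar1b, a regulatory subunit of protein kinase A, had 391, 252, 258 and 379 in TKO libraries, against 66.2, 81.5, 48.9 and 90.6 in WT libraries, with 58.3 ± 12.5 in DKO and 84.0 ± 17.9 in KO cells (2.20 ± 0.35, adjusted p = 0.00025). For both genes all 4 TKO libraries were above every DKO, KO and WT library. In the other direction, Ncf1, a subunit of the phagocyte oxidase, averaged 528 in TKO, 444 ± 65.4 in DKO, 394 ± 30.4 in KO and 97.5 in WT cells, a departure of -1.80 ± 0.27 (limma, adjusted p = 0.0001). Pim2, at 4973 in TKO, 3442 ± 333 in DKO, 2261 ± 372 in KO and 623 in WT cells, departed by -1.34 (limma, adjusted p = 0.011). Ifitm3 departed with a positive sign, by 2.37 ± 0.43 (limma, adjusted p = 0.0014), but as a gene that fell. It averaged 52.6 in TKO, 37.0 in DKO, 63.5 in KO and 258 in WT cells, a smaller fall than both single effects would add up to.

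The levels of TKO cells without restimulation were also set beside those of 12 WT libraries given anti-CD3 and anti-CD28 again for 1, 2 or 4 h. This is a description, with no test. Of the 3114 genes higher in TKO than in WT cells at 0 h, 1102 (35.4%) had all 4 TKO libraries above all 12 restimulated WT libraries, 204 had all below, and 1808 overlapped. Of the 15 leading rises, 13 were above, and Il24 and Zbtb32 overlapped. The 3114 genes were chosen for being higher than in WT cells at 0 h. The 15 were also chosen for having every TKO library above every WT library at 0 h. A place above restimulated WT libraries follows in part from that choice, and the share over all genes tested was not counted. Icos averaged 9931 ± 2368 normalized counts in unstimulated TKO cells, against 746 ± 232 in WT cells at 2 h, its highest WT time (SD, n = 4). Ctla4 averaged 2920 ± 798 in TKO cells, against at most 309 ± 58.9 in restimulated WT cells at 1 h, and Pim2 4973 ± 231, against at most 612 ± 97.6 at 1 h. Tcf7 averaged 5331 ± 332 in TKO cells, against at most 1415 ± 406 at 1 h. These 4 genes lay above the range of restimulated WT cells.

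Genes known to be induced within hours of T cell receptor signalling were placed differently. Nr4a1 averaged 134 ± 37.6 normalized counts in unstimulated TKO cells, against 17993 ± 1919 in WT cells at 1 h. Rel averaged 502 ± 52.4 in TKO cells, against 4192 ± 861 in WT cells at 2 h, and Tnfsf14 averaged 120 in TKO cells, against 2421 in WT cells at its highest time. All TKO libraries of these genes were below all restimulated WT libraries. Nfkbia averaged 719 ± 18.5 in TKO cells, against 2393 ± 320 in WT cells at 1 h, and Il10 averaged 77.2 ± 39.7, against 172 in WT cells at 2 h, both with overlapping libraries.

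**Figure D5:**
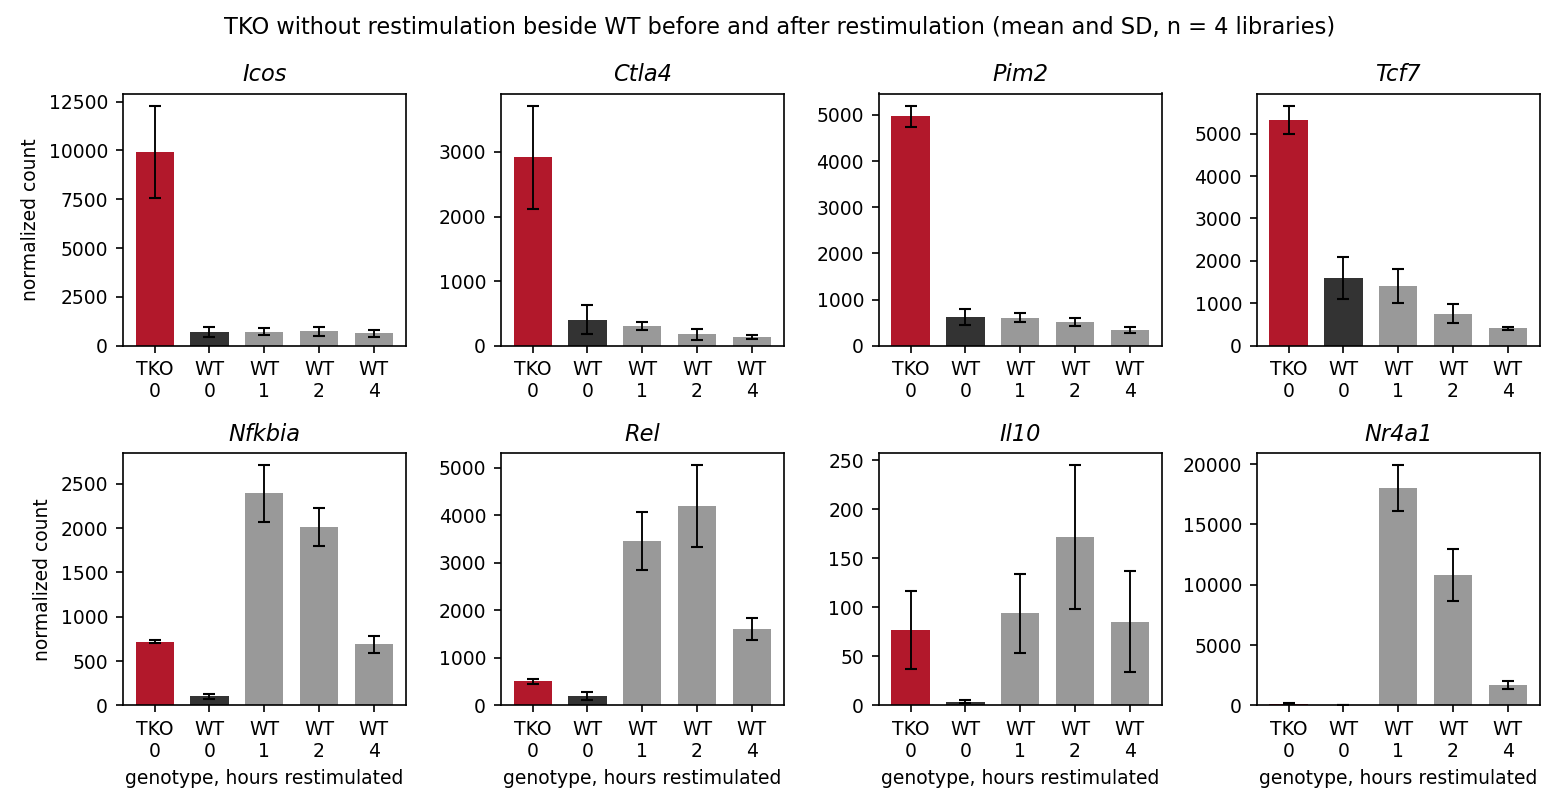
Normalized counts (y axis, mean and SD of 4 libraries) of 8 genes in TKO cells without restimulation and in WT cells at 0, 1, 2 and 4 h of restimulation (x axis). In the upper row, from Icos to Tcf7, unstimulated TKO cells are above WT cells at every time. In the lower row, Rel and Nr4a1 in unstimulated TKO cells are below restimulated WT cells, and Nfkbia and Il10 fall within their range.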

How the data were processed

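RNA-seq of cultured mouse CD4 T cells was analysed from 1 table of 23134 genes. Per the labels' protocols, RNA was harvested with Trizol and libraries were made with a NuGEN kit; the build was GRCm38, per the submitters' processing notes. Not given in the sources used here are the aligner, the counting tool and the strand setting. Per the file headers, the authors deposited a list of 4 normalized counts per group, other values that carry no replicate numbers, so libraries are named by their place in the list. Group-mean columns (signal, in normalized counts, deposited by the authors) were not used, and 48 columns of other values were left out. The authors' deposited log2 fold changes and FDR (adjusted p-values) served only to count shared calls.

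In each library 100% of low values were whole multiples of 1 read (tolerance 0.1 read), which gave 5369873 to 11666612 reads per library (median 7720297). Genes were kept at 1.3 CPM or more (10 reads at the median depth) in at least 4 libraries and a sum of at least 15 reads (16140 genes), and scaled by TMM (trims of 30 and 5 percent) to a depth of 7720297.5. The design foresaw a count model for raw counts. As the values deposited are normalized, limma 3.58.1 (R 4.3.3) was used on log2(value + 1), with 1 mean for each of 16 groups over 64 libraries (48 residual degrees of freedom), trended and robust moderation, 2-sided p-values and Benjamini-Hochberg adjustment. On simulated data with the read depths of these libraries (16140 genes, 200 changed), 20.69% of 1.5-fold, 69.44% of 2-fold and 100% of 4-fold changes were recovered. Of 139 calls there, 7 were false. The measured libraries gave 6045 calls, and recovery and false calls with that many changes were not tested.

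Members and gene lists were chosen with earlier results of these data known. Genes were named by rule: the 15 largest rises and falls among called genes with at least 5 CPM in the higher group, groups that do not overlap and a proper gene name; up to 4 called members of each list by adjusted p, with members not called where they describe the list; and the 6 largest each way in the other comparisons. Lists are described by counts and medians, with no set test. Positions and the decay-element search used GENCODE vM21. An overlapping gene is named beside a gene where it had more than 50% as many reads. Alternatives covered scaling, pseudocount, filter, groups fitted, voom on the recovered reads, each library left out, and 2 added terms. A marker gene is not reported here.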

Additional observations from a re-analysis of the deposited data

Results flagged for a closer look

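In 20 of 274 gene and genotype groups of 4 libraries, 1 library lay far from the other 3 (its gap to the nearest of them made up most of the range, past Dixon's critical value), which chance alone gives in about 1 in 20 groups. Values below are normalized counts. WT library 3 was high for Tnip1 (511, others 361 to 380), Pim2 (876, others 527 to 555), Ccr7 (1003, others 548 to 609), Klf2 (261, others 127 to 147), Lair1 (246, others 132 to 140) and Ifitm2 (228, others 79.6 to 104), and low for Nyap2 (17.5, others 55.2 to 60.9). It was also the WT library with 0 counts of Pdzk1ip1, where the others had 0.854 to 1.00. WT library 4 was high for Tnfrsf8 (54.7, others 28.1 to 31.3), Dpp4 (637, others 381 to 407), the thymocyte gene Themis (8886, others 3870 to 4335) and mt-Co1 (30384, others 25994 to 26712). It held the 1.71 normalized counts of Sema3b and the 1.71 of Dlk1, genes at 0 in the other WT libraries.

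Among TKO libraries, library 2 was high for Gata3 (398, others 235 to 254) and Ctla4 (4106, others 2364 to 2608) and low for Tnfrsf25 (180, others 237 to 245). TKO library 3 was high for Hsp90ab1 (9244, others 7758 to 8006). TKO library 4 was high for Il9r (171, others 55.9 to 68.7) and low for Gimap3 (510, others 651 to 667).

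The effect of losing Regnase-1 differed with and without the Roquin genes for the 12 genes named for non-additivity by limma. The departure on the log2 scale was 3.73 for Shisa3 (whose overlapping neighbour Atp8a1 had 2588% as many reads), 2.37 for Ifitm3, 2.35 for Car13, 2.21 for Otud3, 2.20 for Prkar1b and 2.18 for Ifitm1. It was -2.19 for Zcchc18, -1.82 for Ms4a4c, -1.80 for Ncf1, -1.79 for Lypd6b, -1.52 for Zc3h12a and -1.48 for Pou2f2. With the olfactory and vomeronasal receptor level as a term, Car13, Ifitm1, Ms4a4c and Lypd6b were no longer called. Each of these 4 was also lost when any of several single libraries was left out, and Car13, Ifitm1 and Lypd6b when only the groups compared were fitted. Car13 was further lost with total-reads and upper-quartile scaling. By limma voom Shisa3 (adjusted p = 0.301), Car13 (0.137) and Ifitm1 (0.0856) were not called.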

How the results depend on the processing

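No paired analysis was possible because the deposited columns carry no replicate numbers. A planned count-model test of the recovered reads was not run; limma voom on those reads called 6283 genes. TKO against WT cells gave 6045 calls, 3717 when only the groups compared were fitted and 2555 with the receptor term; leaving out 1 library gave 4966 to 6542, adding the Xist and Y-linked pattern gave 6132, and the deposited scaling gave 6590. Against DKO cells, the groups compared alone gave 874 calls, the receptor term 437 and leaving out 1 library 1216 to 2651 (1528 without TKO library 1, 1216 without TKO library 4, 1319 without DKO library 4). Against KO cells, the receptor term gave 808 and leaving out 1 library 2065 (without KO library 1) to 3235. The 118 non-additive calls became 1795 with the deposited scaling, 184 with median-of-ratios factors, 56 with total reads, 79 with the upper quartile, 20 with only the groups compared and 39 with the receptor term, and 45 (without TKO library 4) to 575 (without WT library 4) with 1 library left out. Leaving out TKO library 2 gave 388, DKO library 1 60, DKO library 2 234, KO library 1 74, KO library 2 61, WT library 1 57, WT library 2 63 and WT library 3 59. Rc3h2 was 45.4% higher in TKO than in WT cells in TMM-normalized counts (exact permutation p = 0.0286). Of 136 named genes, 90 were called under all 20 alternatives and 46 were lost under at least 1. Changes of sign came with the receptor term alone, at -0.20 for Rpl10a and -0.15 for Rpl3 (TKO against WT) and 0.30 for Chl1 (TKO against KO). The cause was not tested. Genes under 5 CPM rested on few reads, and with genes of at least 5 CPM alone 4212 were called.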

Other observations

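Calls of protein folding and translation genes depended on the scaling. Of 12 heat shock genes, 6 were higher in TKO than in WT cells, 0 were lower and the median change was 0.38, with 2 higher under all 5 scalings. Of 25 ribosomal protein genes, 3 were higher and 0 lower with a median of 0.15, and 0 were called under all 5 scalings. Without TKO library 4, 0 of the 25 were called, and with the olfactory and vomeronasal receptor level as a term 0 were higher and 11 lower, with a median of -0.32. With that term 1 of the 12 heat shock genes was higher. Of 7 mitochondrially encoded genes 1 was higher. Of 18 genes of MYC and amino acid transport, 5 were higher and 1 lower (0 higher and 2 lower with that term), and of 10 genes of purinergic signalling 3 were higher and 1 lower. Of 11 chemokines, 2 were higher and 1 lower.

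Markers of other blood cells were at low levels. CD8 T cell markers summed to 10.45 to 16.2 CPM in TKO libraries and 4.12 to 19.8 CPM in WT libraries. Neutrophil markers summed to 0 to 0.268 CPM in TKO and 0.161 to 1.06 CPM in WT libraries. Dendritic cell markers summed to 4.95 to 6.83 CPM in TKO and 2.09 to 10.36 CPM in WT libraries, and erythroid and platelet markers to 0.582 to 2.65 CPM in TKO and 2.82 to 6.27 CPM in WT libraries. The gamma delta and innate-like list held 1 tested gene, Zbtb16, which was lower.

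The B cell list included surface genes that rose without the B cell receptor chain Cd79a. Cd22, an inhibitory lectin of B cells, had 34.3, 33.0, 31.8 and 25.0 normalized counts in TKO libraries, against 3.01, 6.88, 0 and 5.13 in WT libraries, and Cd79b had 20.6, 29.3, 23.1 and 6.53 in TKO libraries, against 2.01, 3.93, 3.76 and 1.71 in WT libraries. Pax5, the factor that defines B cells, averaged 12.0 in TKO and 23.4 in WT cells.

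A set of 5 abundant predicted loci (Gm10800, Gm26870, Gm21738, Gm10718 and Gm10801), chosen after their values were seen, also varied between libraries. It summed to 4746, 7729, 9580 and 6227 CPM in TKO libraries, against 22542, 34629, 8000 and 47608 CPM in WT libraries. WT library 3 was lowest and WT library 4 highest in both this sum and the olfactory and vomeronasal receptor sum, whereas the TKO libraries were ordered differently in each (library 1 was lowest in this sum and library 4 in the receptor sum). The receptor sum was 108 to 178 CPM in DKO and 131 to 172 CPM in KO libraries. The part of these loci in the falls of low genes was not tested.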
